A study of Mus musculus with 8 samples.

Results

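Cd8 T cells of mouse bone marrow that carry transcripts of Ly49 receptors, the killer cell lectin-like receptors encoded by the Klra genes, were followed through 4 single-cell libraries. Cells were chosen by their own UMI counts, where a UMI (unique molecular identifier) marks 1 captured transcript. A cell had at least 200 detected genes, at most 15% of its UMIs from mitochondrial genes, at least 1 UMI of Cd3d, Cd3e or Cd3g, at least 1 of Cd8a and 1 of Cd8b1, at least 1 of Klra6 or Klra7, and none of Cd4, Klrg1 or Pdcd1. Those 1702 cells are called the Ly49 gate. They came out of 56649 deposited barcodes, of which 55850 passed the cell filters and 21638 were Cd8 cells by the Cd3, Cd8a, Cd8b1 and Cd4 conditions. Because the rule read Cd3, Cd8, Cd4, Klra6, Klra7, Klrg1, Pdcd1 and mitochondrial UMIs, the levels of those genes in the gate describe the rule and were not tested. The class called other Cd8 cells, or cells outside the gate, held 16179 Cd8 cells with no UMI of Klra6, Klra7, Klrg1 or Pdcd1, so Cd8 cells with Klrg1 or Pdcd1 UMIs were in neither class.

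The libraries came from C57BL/6 mice. In the Runx1::Runx1t1 group a conditional knock-in of the Runx1::Runx1t1 fusion was switched on by Mx1-Cre, a recombinase driven by an interferon-inducible promoter. The control group is labelled WT in the deposited labels, whereas the study describes control mice that carried the silent knock-in without Mx1-Cre. All mice were injected 4 times with the interferon inducer Poly(I:C), 5 mg/kg each time, by the intraperitoneal route, and marrow was taken 4 weeks after induction. After negative enrichment of T cells, DAPI- mCherry- CD3+ cells were sorted, so cells in which the fusion reporter was on were removed. Each group had 2 pools of 2 mice, each with a 5′ gene expression library and a T cell receptor (TCR) library, and the pool was the replicate (n = 2 against 2). Xist, the transcript of the inactive X chromosome, was at 474 and 243 CPM (UMIs per 1e6 UMIs of the sum) in the replicate 1 pools of the Runx1::Runx1t1 and control groups, and the Y-linked gene Ddx3y was at 61.6 and 54.4 CPM in the replicate 2 pools. The replicate number therefore tracked the sex of the mice in the same way in both groups. The gene expression libraries held between 90958101 and 102883449 UMIs, with 6239 to 6368 UMIs per barcode at the median.

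Ly49 receptors are best known from natural killer (NK) cells, where inhibitory members read MHC class I on other cells and activating members signal through ITAM adaptors such as Tyrobp (DAP12). A minority of mouse Cd8 T cells carry them too. Ly49-positive Cd8 T cells have been described both among antigen-inexperienced memory-like cells that depend on Eomes and IL-15, and as regulatory Cd8 cells that express Ikzf2 (Helios). Klra6 encodes Ly49F and Klra7 encodes Ly49G, both inhibitory receptors, and they lie in the NK gene complex on chromosome 6. In the GRCm38 annotation Klra6 spans chr6:130013033-130026954 and Klra7 chr6:130218605-130233322, both protein-coding and on the minus strand.

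The 150 bases before the annotated starts of the genes that define the gate, and of Klra8 (Ly49H), which is taken up again in the comparison of the groups, are shown because the Ly49 genes are near copies of each other. The sequences were read from RefSeq GRCm38.p6, minus strand, and are written 5′ to 3′. Capitals mark the longest run that the Klra6 and Klra7 windows share, and in Klra8 the longest unbroken stretch of that run. The windows are chr6:130026955-130027104 for Klra6, chr6:130233323-130233472 for Klra7 and chr6:130129899-130130048 for Klra8.
Klra6: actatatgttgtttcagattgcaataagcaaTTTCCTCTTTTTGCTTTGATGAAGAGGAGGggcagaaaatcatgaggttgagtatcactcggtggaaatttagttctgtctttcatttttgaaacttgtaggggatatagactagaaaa
Klra7: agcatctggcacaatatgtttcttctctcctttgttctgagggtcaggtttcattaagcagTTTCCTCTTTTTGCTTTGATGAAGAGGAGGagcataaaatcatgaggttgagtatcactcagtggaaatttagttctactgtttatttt
Klra8: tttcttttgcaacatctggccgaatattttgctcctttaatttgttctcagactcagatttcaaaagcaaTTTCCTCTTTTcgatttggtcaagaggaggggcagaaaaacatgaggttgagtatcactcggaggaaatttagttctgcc
The shared run of Klra6 and Klra7 was 30 bases long, and its longest unbroken stretch in Klra8 was 11 bases. Later bases of the run also occur in Klra8, in lower case. The letters CTTTGA, searched on both strands as the core that TCF/LEF factors recognise, occurred in the windows of 2 of the 11 Klra genes that had one, Klra6 and Klra7, and in 16% of 32851 windows of all genes. TGTGGT, the core read by Runx factors, occurred in 1 of the 11, Klra1, and in 16.8% of all windows. Such a match is only a description of the letters. Transcripts are also near copies: 14.4% of the 100-base windows of the Klra8 transcript occurred unchanged in Klra9 or Klra14-ps, and 1.83% of those of Klra7 in Klra13-ps, whereas none of those of Klra6, Klra1 and Klra5 occurred in another Klra gene. Counts of Klra8 and Klra9 are therefore less certain than those of Klra1.

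Several features of the libraries stand beside every result below. Gate cells were deeper than other Cd8 cells, with median UMI counts of 11245 and 12607 in Runx1::Runx1t1 replicates 1 and 2 and 9727 and 10070.5 in control replicates 1 and 2, against 8129, 8074, 6868 and 6932.5 in the other Cd8 cells of the same pools. A deeper cell has more chances to show 1 UMI of Klra6 or Klra7, so depth was in part chosen by the rule. Scrublet, a caller of droplets that hold 2 cells, marked 25.0% and 21.3% of gate cells in the control pools but 5.34% and 3.10% in the Runx1::Runx1t1 pools, against 2.82% to 4.99% of other Cd8 cells. In 3 of the 4 pools its automatic cut-off marked almost none and the highest-scoring 5% were taken instead. Of 55001 distinct barcodes 1627 occurred in 2 or more libraries, 1 barcode was a gate cell in 2 libraries, and no shared barcode carried the same TRA and TRB sequences in both.

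The gate held a smaller share of Cd8 cells in the Runx1::Runx1t1 pools. Gate cells numbered 393 of 5607 Cd8 cells, or 7.01% (95% Wilson interval 6.37 to 7.71), in Runx1::Runx1t1 replicate 1 and 258 of 6419, or 4.02% (3.57 to 4.53), in replicate 2. They numbered 511 of 4367, or 11.7% (10.8 to 12.7), in control replicate 1 and 540 of 5245, or 10.3% (9.50 to 11.1), in control replicate 2. Both Runx1::Runx1t1 pools lay below both control pools, with means of 5.51% and 11.0%. Permuting the pools exactly gave a two-sided p of 0.333, the smallest value this test can give with 2 against 2 pools, so it cannot reach 0.05. Intervals cover counting error only.

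The conditions on Klrg1 and Pdcd1 change the denominator. Pdcd1 encodes the checkpoint receptor PD-1, and Cd8 cells with Pdcd1 UMIs and none of Klrg1, Klra6 or Klra7 are called Pdcd1 cells. They numbered 522 and 2074 in the Runx1::Runx1t1 pools and 73 and 83 in the control pools. Among Cd8 cells with neither Klrg1 nor Pdcd1 UMIs the gate made up 8.46% and 6.32% in the Runx1::Runx1t1 pools against 12.3% and 10.8% in the controls. The order held, and the gap between groups was narrower. Counting each clonotype once gave 8.80% and 6.89% against 11.6% and 11.7%. Leaving out the Scrublet doublets gave 7.04% and 4.10% against 9.43% and 8.71%, and thinning each cell to 2000 UMIs gave 1.58% and 0.708% against 2.62% and 1.95%. The order also held without cells that held a UMI of Ncr1, Klrb1c, Trdc or Cd79a, genes of NK, gamma-delta T and B cells, with a narrower gap, at 5.45% and 3.19% against 7.10% and 6.26%. That filter left 281 of 393 and 197 of 258 Runx1::Runx1t1 gate cells, and 268 of 511 and 289 of 540 control gate cells. Klrb1c UMIs alone were seen in 25.4% and 20.9% of gate cells against 44.2% and 44.4% in the controls. The filter thus took a larger share of the control gate. The conditions on Klrg1 and Pdcd1 removed only 31, 37, 22 and 26 cells with Klra6 or Klra7 UMIs.

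**Figure D1:**
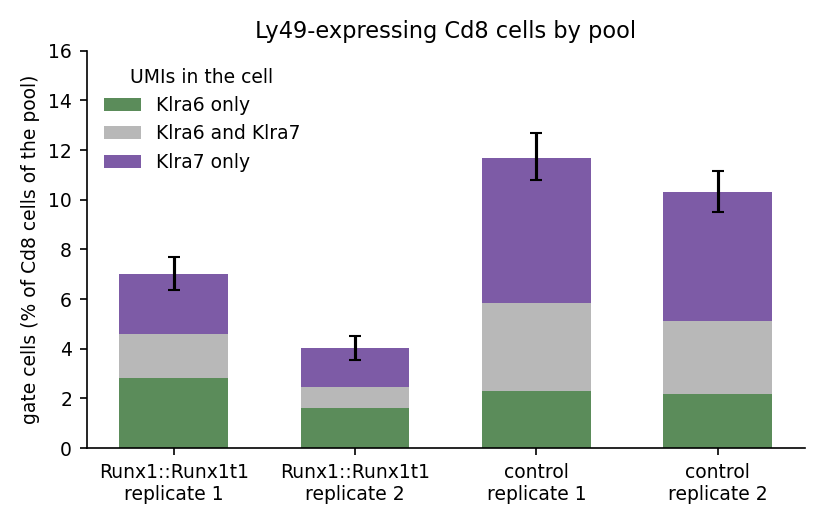
Share of Cd8 cells in the Ly49 gate (y axis, percent) for each pool, split by colour into cells with Klra6 UMIs only, with both and with Klra7 UMIs only, with the 95% Wilson interval of the whole bar. The Runx1::Runx1t1 pools sit at 7.01% and 4.02% and the control pools at 11.7% and 10.3%.

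Klra6 and Klra7 UMIs were also counted in cells that should largely lack them, as a background. In Cd4 T cells 0.883% and 0.712% of cells in the Runx1::Runx1t1 pools and 2.67% and 1.36% in the control pools had a Klra6 or Klra7 UMI, at median depths of 4455.5 to 5472 UMIs. In all Cd8 cells, before the Klrg1 and Pdcd1 conditions, the same share was 7.56%, 4.60%, 12.2% and 10.8%, at medians of 7064 to 8101 UMIs. At 2000 UMIs per cell the shares were 2.93%, 1.63%, 5.57% and 4.58% in Cd8 cells against 0.535%, 0.257%, 1.01% and 0.978% in Cd4 cells. The background in Cd4 cells thus had the same group order as the gate share, lower in both Runx1::Runx1t1 pools, with and without thinning. The part of background in the group difference of the gate share was not tested. Among 66 B cells in all 1 had a UMI.

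The lowest count that admitted a cell was 1 UMI, and 631 of the 1702 cells stood on that single UMI. In the order Runx1::Runx1t1 replicates 1 and 2 and control replicates 1 and 2, Fcer1g was at 7.68, 4.74, 40.3 and 24.9 CPM in other Cd8 cells, with 0 UMIs, at 54.3, 30.4, 182 and 163 CPM in cells with 1 UMI, and at 177, 121, 347 and 273 CPM in those with 4 or more. Ccr7 was at 756, 862, 697 and 550 CPM at 0 UMIs and at 328, 425, 295 and 291 CPM at 1 UMI. Fcer1g was thus higher and Ccr7 lower in every pool in cells just inside the limit than in those just outside it. Ikzf2 was at 13.9, 22.2, 21.1 and 14.9 CPM at 0 UMIs and at 39.7, 26.2, 54.5 and 67.7 CPM at 1 UMI, with the smallest step in Runx1::Runx1t1 replicate 2. Median depth rose too, from 8129, 8074, 6868 and 6932.5 UMIs at 0 to 10556, 12081.5, 8605 and 9481 at 1. Requiring 2 UMIs left 4.28% and 2.34% of Cd8 cells in the Runx1::Runx1t1 pools and 7.58% and 6.67% in the control pools.

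Klra6 and Klra7 UMIs were seen together in 461 gate cells. A cell with a single UMI can show only one of the genes, so the 631 such cells could not show both. Klra6 alone was seen in 40.5% and 40.3% of gate cells of the Runx1::Runx1t1 pools and in 19.6% and 21.3% of those of the control pools. Klra7 alone was seen in 34.6% and 39.1% against 49.9% and 50.2%, and both in 24.9% and 20.5% against 30.5% and 28.5%. The groups did not overlap in any of the 3 classes, and these genes belong to the rule, so the mixture is a description. From 51.6% to 58.7% of gate cells had UMIs of 2 or more Ly49 genes and 16.7% to 21.5% of 3 or more, with 5 as the most in 1 cell.

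The adaptor genes Fcer1g and Tyrobp encode ITAM partners through which activating NK receptors signal. They were taken as markers of the gate with earlier results of these data known. Their levels therefore describe the gate and are not a separate check of its name. Fcer1g was at 104 and 66.2 CPM in the gate of the Runx1::Runx1t1 pools and at 267 and 209 CPM in that of the control pools, against 7.68, 4.74, 40.3 and 24.9 CPM in other Cd8 cells. Tyrobp was at 57.1, 41.1, 159 and 109 CPM against 11.0, 6.99, 41.8 and 22.1 CPM. Every pool was higher in the gate for both genes. Cells with an Fcer1g UMI made up 24.2% and 18.2% of the gate in the Runx1::Runx1t1 pools and 59.9% and 49.3% in the control pools, and the groups did not overlap. At 2000 UMIs per cell those shares were 11.2%, 8.14%, 31.9% and 27.1%, against 0.739% to 2.92% in other Cd8 cells. Within the gate of each pool, Ikzf2 UMIs were seen in 56.8% to 66.0% of cells with Fcer1g and in 24.6% to 36.1% of cells without it. Klrb1c (NK1.1) was seen in 57.4% to 68.4% against 11.7% to 21.2%, and Tyrobp in 42.6% to 51.6% against 7.58% to 13.9%, with no overlap for these 3 genes. Eomes had no such split, at 77.9%, 74.5%, 54.6% and 44.4% with Fcer1g and 70.5%, 78.2%, 40.5% and 46.7% without it, and the order differed between pools. That split was chosen after the values were seen and was not tested.

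The comparison with other Cd8 cells asks what else sets Ly49-bearing cells apart. UMIs were summed per pool and class, and 11425 genes were tested in edgeR (quasi-likelihood, pools entered as blocks, Benjamini-Hochberg adjustment). Of all genes tested 10.3% were higher and 7.72% lower in the gate at an adjusted p under 0.05 (1172 and 882 genes), and the median log2 fold change over all genes was -0.0019. The gene lists below were chosen with earlier results of these data known and are read against those shares. Of 54 called genes followed through the alternatives 20 lost their call without the pool as a block and 3 with DESeq2, and on thinned cells 22 of 44 kept it.

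Other Ly49 genes and most other NK receptor genes were higher. Of 9 other Ly49 genes 5 could be tested and all 5 were higher (median log2 fold change 3.26). Klra1, which encodes the inhibitory receptor Ly49A, was at 31.3, 37.7, 59.1 and 58.6 CPM in the gate of Runx1::Runx1t1 replicates 1 and 2 and control replicates 1 and 2, and at 1.98, 1.75, 3.53 and 3.61 CPM in other Cd8 cells. The lowest gate value was well above the highest value outside, and the log2 fold change was 4.09 ± 0.10 (SE, adjusted p = 2.09e-10). Klra3 (Ly49C) was higher by 2.29 and Klra5 (Ly49E) by 3.26 on the log2 scale. Of 18 other NK receptors tested 14 were higher and none lower (median 1.52). The lectin-like receptor gene Klre1 was at 186, 213, 166 and 176 CPM against 28.1, 20.8, 20.3 and 20.8 CPM, with no overlap between the classes. Klrb1a, of the NKR-P1 family, was the gene with the largest rise (log2 4.26 ± 0.33), and Klrb1c rose by 3.11. The NKG2 genes Klrc1, Klrc2 and Klrc3, whose products pair with CD94 and read Qa-1, rose by 1.75, 3.01 and 3.29, their partner Klrd1 (CD94) by 0.75, and Klrk1 (NKG2D) by 1.62. Ncr1, the NKp46 gene that separates NK cells from most T cells, rose by 2.99 but reached only 1.47, 1.43, 8.04 and 6.14 CPM.

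Of 13 genes of ITAM adaptors and early signaling 9 were higher and 2 lower (median 0.26). Beside Fcer1g and Tyrobp, Lat2, a linker of the LAT family, was at 13.4, 13.7, 13 and 13.8 CPM against 3.83, 7.23, 2.64 and 3.01 CPM (log2 1.78 ± 0.20, adjusted p = 7.75e-05), at a near equal level in the 4 gate sums. Lat, the linker of the TCR itself, fell by 0.51 ± 0.03 on the log2 scale (adjusted p = 5.94e-07), and Cd247, the CD3 zeta chain, fell by 0.24. The kinase gene Zap70 rose by 0.33.

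Genes of the memory-like program were mostly higher. Of 12 genes of a virtual memory list 9 were higher and 2 lower (median 0.37). Il2rb, the receptor chain shared by IL-2 and IL-15, was at 687, 600, 655 and 715 CPM in the gate and at 367, 385, 257 and 315 CPM outside it (log2 1.01 ± 0.08, adjusted p = 6.47e-06). Cd44, an adhesion receptor of antigen-experienced cells, rose by 0.77 and Eomes, a T-box factor of memory and NK cells, by 0.69 ± 0.05. Eomes lost its call without the pool as a block (adjusted p = 0.405), and its level differed between the groups. Il7r, the IL-7 receptor chain, fell by 0.63 and Itga4, the alpha 4 integrin chain, by 0.52. Itga4 lost its call without Runx1::Runx1t1 replicate 1, at a log2 fold change of -0.45.

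Of 8 genes of a regulatory Cd8 list 2 were higher and 2 lower (median 0.02). Ikzf2, the Helios gene, was at 53.3, 45.7, 84.2 and 75.8 CPM in the gate and at 13.9, 22.2, 21.1 and 14.9 CPM in other Cd8 cells (log2 1.86 ± 0.14, adjusted p = 5.32e-06). No pool outside the gate reached any gate value. Fasl was the other gene that rose, and Icos and Il10 fell. Among 20 transcription factors 6 were higher and 7 lower, with Tbx21 (T-bet) up by 0.67 and Nfil3, a factor needed for NK cell development, up by 0.95.

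Most naive genes were lower. Of 10 such genes 8 were lower (median -0.62). Ccr7, the lymph node homing receptor, was at 292, 373, 289 and 223 CPM in the gate and at 756, 862, 697 and 550 CPM outside it (log2 -1.30 ± 0.04, adjusted p = 5.42e-10). Dapl1 fell by 1.37, Igfbp4 by 1.81 and Lef1 by 0.62.

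Effector genes were mixed. Of 13 cytotoxic genes 7 were higher and 1 lower (median 0.44). The member that fell was Gzmk, the granzyme of effector memory cells, at 15.1, 24.0, 11.3 and 13.5 CPM in the gate and at 75.2, 116, 31.0 and 55.2 CPM outside it (log2 -2.08 ± 0.10, adjusted p = 9.63e-08). Ctsw, a cathepsin of cytotoxic cells, rose by 0.57. Xcl1, the chemokine that attracts cross-presenting dendritic cells, was at 547, 934, 644 and 912 CPM against 155, 241, 132 and 269 CPM (log2 1.94 ± 0.06, adjusted p = 3.34e-09). Of 16 genes of chemokines and homing 6 were higher and 6 lower. Of 14 cytokine receptors 7 were higher and 2 lower, among them Il12rb2 (1.82) and Il18rap (1.05), the receptor chains for IL-12 and IL-18, which rose, and Il6ra (-1.33), which fell.

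Most inhibitory receptor and interferon response genes were lower. Of 7 inhibitory receptor genes 4 were lower and 1, Cd160, higher by 1.42 (median -0.50). Lag3 fell by 1.74 ± 0.18 and Ctla4, another checkpoint receptor, by 1.68 ± 0.16. Lag3 was at 4.61, 15.7, 3.75 and 1.36 CPM in the gate against 19.0, 58.7, 5.42 and 5.6 CPM outside it. Of 10 interferon response genes 8 were lower and none higher (median -0.61), with Isg15 down by 0.76, Ifit3 by 0.91 and Ifi27l2a by 0.83. Of 7 proliferation genes 4 were called higher (median 0.85), unevenly over the pools. Mki67, the Ki-67 gene, was at 33.6, 73.6, 4.82 and 11.6 CPM in the gate and at 16.3, 24.0, 6.61 and 9.76 CPM outside it, so it was lower in the gate in control replicate 1. Its call (log2 0.91 ± 0.22, adjusted p = 0.0139) was lost without Runx1::Runx1t1 replicate 1 or replicate 2, at 0.83 and 0.51, and with DESeq2, and its sign turned on thinned cells (-0.59). From these mice the study singled out Adgrg1, Chn2, Lag3, Osgin1 and Pdcd1 by comparing cells it called tumor-reactive with bystander cells. Pdcd1 belongs to the rule here, and cells with Pdcd1 UMIs are in neither class, so the comparisons differ. Of the other 4 genes, Chn2 was higher and Lag3 and Osgin1 were lower. Adgrg1 was at 2.10, 5.99, 5.18 and 8.18 CPM in the gate against 5.94, 19.0, 2.82 and 9.79 CPM outside it. The largest falls by rank included H2-Aa, H2-Ab1 and Cd74, genes of MHC class II presentation (-2.75, -2.42 and -2.26), the ganglioside synthase gene St8sia1 (-2.41) and the kinase gene Matk (-2.31). The fall of H2-Aa was uneven over the pools, at 1.89, 3.71, 0.357 and 0.341 CPM in the gate against 7.03, 3.97, 16.5 and 7.92 CPM outside it.

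**Figure D2:**
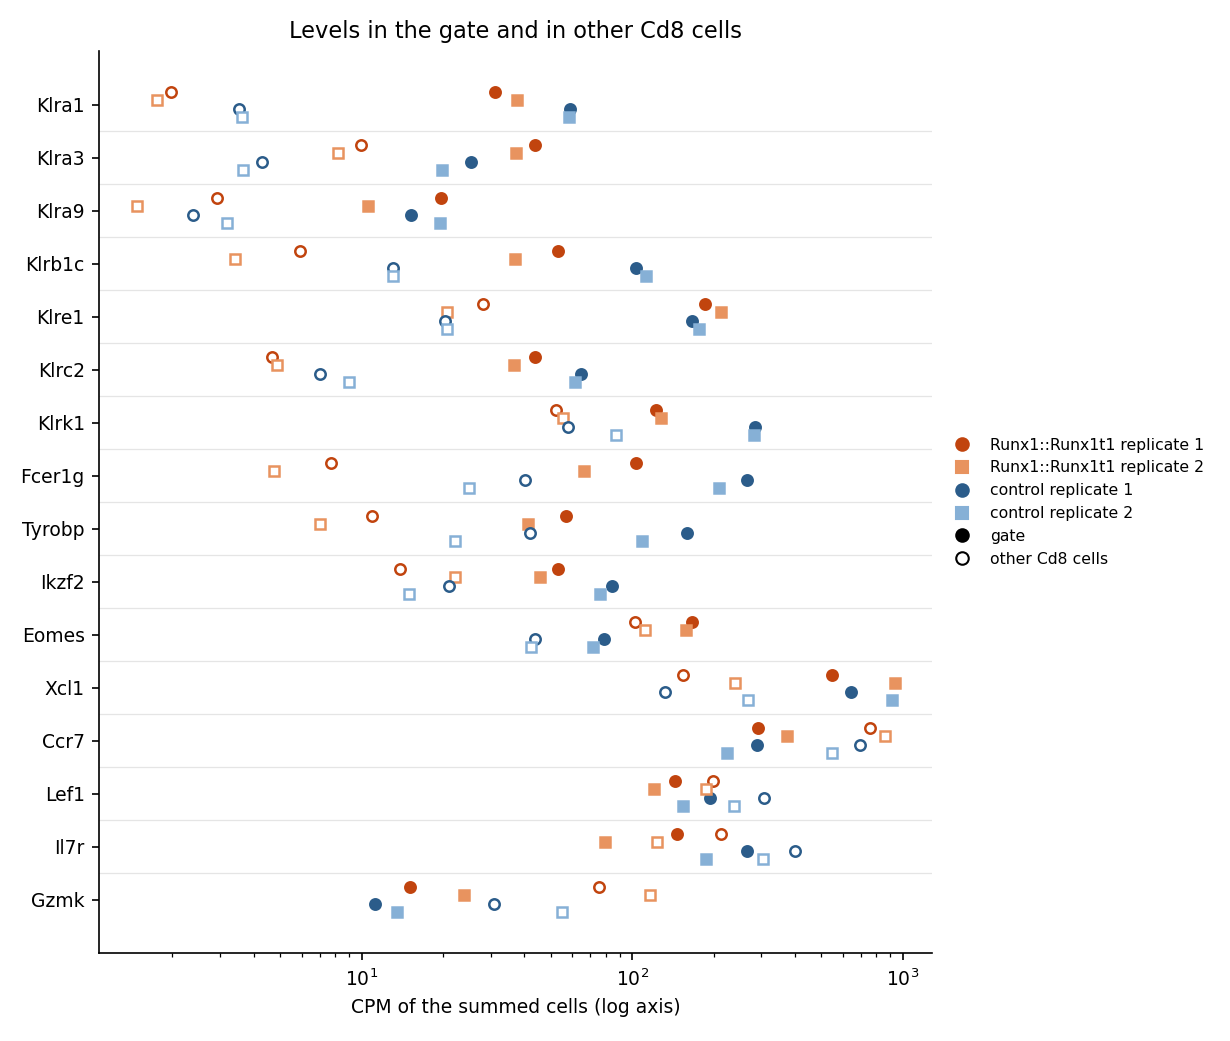
Level of named genes (x axis, CPM of the summed cells, log axis) in the Ly49 gate and in other Cd8 cells of each of the 4 pools. Klra1, Fcer1g, Ikzf2 and Xcl1 lie higher in the gate in every pool, and Ccr7 and Gzmk lie lower.

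Markers of other cell types were measured beside these results. The NK list of Ncr1, Klrb1c and Klre1 summed to 241, 251, 277 and 295 CPM in the gate against 34.1, 24.4, 34.5 and 34.6 CPM outside it, with Klre1 the most abundant, and 3 of 3 were higher, all of them also in the NK receptor list. The gamma-delta T cell list, led by Trdc, summed to 31.0, 25.4, 44.8 and 43.6 CPM against 7.93, 13.8, 19.7 and 15.9 CPM, and 4 of 4 were higher. The B cell list, nearly all Cd79b, summed to 8.81, 11.7, 8.75 and 7.84 CPM against 12.3, 11.9, 14.3 and 12.1 CPM, lower in the gate in each pool, with Ms4a1 and Pax5 at 0 in the gate. Cd79a was at 0, 0, 0.357 and 0 CPM against 0.95, 1.30, 2.23 and 0.301 CPM. The parts of B and myeloid cells in the lower MHC class II genes were not tested. The myeloid list, led by Cst3, summed to 99.0, 87.0, 210 and 190 CPM against 117, 90.0, 339 and 173 CPM, with 3 of 6 tested genes lower and none higher. The erythroid list stayed under 6.26 CPM in every pool of the gate. The progenitor and mast cell list, led by Cpa3, summed to 18.9, 7.70, 3.75 and 11.4 CPM against 75.9, 75.7, 2.71 and 11.6 CPM. Of its 3 tested genes 1, Cpa3, was lower and none higher. The parts of NK and gamma-delta cells in the result were not tested as causes. Without cells that held any UMI of Ncr1, Klrb1c, Trdc or Cd79a the log2 fold change was 4.49 for Klra1, 2.47 for Fcer1g, 1.67 for Ikzf2 and 1.60 for Xcl1, each still called.

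The gate is richer in Il2rb-expressing cells, so the comparison was repeated with cells that had an Il2rb UMI on both sides, 1659 gate cells in all. Of 11015 genes 6.68% were higher and 5.46% lower. Most of the receptor program stayed: 14 of 18 NK receptors were higher (median 1.22), Klra1 by 3.71 and Ikzf2 by 1.72. Gzmk fell by 2.36 ± 0.09 (adjusted p = 3.17e-09), Lag3 by 1.97 and Ccr7 by 1.04. Prf1, the perforin gene, and Gzmb were also lower here, by 0.42 and 0.82, and 4 of 13 cytotoxic genes were lower against 5 higher. Gzmb lost its call without Runx1::Runx1t1 replicate 1, at a log2 fold change of -0.69.

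Cd8 cells with Klrg1 UMIs, a marker of effector cells, and with no Klra6, Klra7 or Pdcd1 UMIs served as a second comparison. They numbered 365 and 142 in the Runx1::Runx1t1 pools and 102 and 142 in the control pools. Of 9440 genes 12.9% were higher and 12.3% lower in the gate. Of 10 naive genes 8 were higher in the gate and none lower (median 1.0). Ccr7 was at 292, 373, 289 and 223 CPM in the gate and at 195, 226, 85.0 and 103 CPM in Klrg1 cells (log2 1.17 ± 0.13, adjusted p = 2.13e-06), higher in the gate in each pool. Tcf7, a factor of naive and memory cells, was higher by 0.97 and the survival gene Bcl2 by 1.36.

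The cytotoxic program went the other way, with 9 of 13 genes lower and 1 higher (median -1.04). Gzma was at 137, 66.5, 15.2 and 18.6 CPM in the gate and at 2313, 2702, 1991 and 1611 CPM in Klrg1 cells (log2 -5.28 ± 0.30, adjusted p = 5.31e-10). Gzmb fell by 3.67, Gzmk by 4.56, Prf1 by 1.70 and Ifng by 1.69. Of 16 genes of chemokines and homing 10 were lower, among them Cx3cr1 (-5.29) and S1pr5 (-5.16), receptors of circulating effector cells. Zeb2, a factor of terminal effector cells, was at 8.81, 4.28, 15.2 and 9.20 CPM against 172, 122, 233 and 173 CPM (log2 -3.99 ± 0.12). Of 7 proliferation genes 6 were lower. Esm1 had the largest fall by rank (-6.00), and Kifc3 (3.30), Tmem108 (2.73) and Itm2a (2.49) were among the largest rises. Fcer1g was higher than in Klrg1 cells by 2.98, Klra1 by 3.33 and Ikzf2 by 1.61, and of 15 NK receptors 6 were higher and 3 lower. Of 5 other Ly49 genes 3 were higher, and 2, Klra8 and Klra9, were not called. Klra9 UMIs were seen in 9.92%, 6.59%, 9.59% and 10.4% of gate cells and in 10.1%, 2.11%, 7.84% and 9.15% of Klrg1 cells.

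Within the gate, Runx1::Runx1t1 pools were compared with control pools on 10112 genes, with 2 against 2 pools and no block. At an adjusted p under 0.05, 2.09% of genes were higher and 1.36% lower in Runx1::Runx1t1 (211 and 138 genes). The study describes sex-matched littermates and the replicate number tracked sex, but the labels do not tie a number to a litter. With the replicate number as a block 1369 genes were called, 812 higher and 557 lower, the 349 among them. Without cells that held a UMI of Ncr1, Klrb1c, Trdc or Cd79a 92 genes were called. That fit rested on 281 and 197 gate cells of the Runx1::Runx1t1 pools and 268 and 289 of the control pools. Of 54 genes followed through the alternatives 20 lost their call with DESeq2, and 13 of 41 that could be tested lost it without those cells. Summed UMIs cannot tell fewer cells of a kind from less RNA per cell.

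The largest rise was Klra8, which encodes Ly49H, an activating receptor that signals through Tyrobp and reads a cytomegalovirus protein. It was at 27.7 and 27.7 CPM in the Runx1::Runx1t1 pools and at 0.715 and 0.341 CPM in the control pools (log2 5.65 ± 0.31, adjusted p = 2.79e-07). The groups were far apart, at 132 and 97 UMIs against 4 and 2. Klra8 UMIs were seen in 43 of 393 and 21 of 258 gate cells against 3 of 511 and 2 of 540. The 34 and 17 of the Runx1::Runx1t1 cells with a paired TCR carried 34 and 17 distinct clonotypes. In other Cd8 cells Klra8 was at 3.94 and 0.652 CPM against 0.371 and 0.0301 CPM, and the group difference in the gate did not pass a test against that outside it (log2 2.36, adjusted p = 0.642).

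Other receptors of the NK gene complex moved both ways. Klrk1, the gene of the stress-ligand receptor NKG2D, was at 122 and 128 CPM in the Runx1::Runx1t1 gate and at 284 and 282 CPM in the control gate (log2 -1.19 ± 0.10, adjusted p = 2.76e-05). Klrb1c was at 53.3 and 36.8 against 103 and 112 CPM (-1.24 ± 0.14), and Klra1 at 31.3 and 37.7 against 59.1 and 58.6 CPM (-0.79 ± 0.12). Klra1 lost its call without cells that held NK, gamma-delta or B cell UMIs (adjusted p = 0.15). Klra3 was higher, by 0.85 ± 0.16, and lost its call without control replicate 2, at 0.69. Of 22 tested genes inside chr6:128609227-130386874, the stretch of GRCm38 that holds these receptors, 8 were called, with Klra3 and Klra8 higher and Clec2d, Clec2i, Klra1, Klrb1c, Klrc2 and Klrk1 lower. Of 19 NK receptors in the list 4 were lower and none higher (median -0.23), and of 5 other Ly49 genes 2 were higher and 1 lower. Markers of other cells fell with them. Ncr1 was at 1.47 and 1.43 against 8.04 and 6.14 CPM (-2.27 ± 0.40, adjusted p = 0.0076) and the gamma-delta gene Trdc at 9.86 and 6.28 against 16.8 and 15.9 CPM (-0.98 ± 0.23, adjusted p = 0.0312). Ncr1 lost its call without control replicate 1, at -2.08, and Trdc without Runx1::Runx1t1 replicate 2, control replicate 1 or control replicate 2, at -0.71, -0.96 and -1.02. The parts of NK and gamma-delta cells in the group differences were not tested.

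Of 13 genes of ITAM adaptors and early signaling 2 were lower, Fcer1g and Tyrobp, and 2 higher, Sh2d1a (0.40), the gene of the adaptor SAP, and Sh2d2a (0.66). Sh2d1a lost its call without Runx1::Runx1t1 replicate 2, control replicate 1 or control replicate 2, at 0.39, 0.44 and 0.37. Fcer1g, with the values given above, fell by 1.48 ± 0.18 on the log2 scale (adjusted p = 0.000763) and Tyrobp by 1.43 ± 0.17 (adjusted p = 0.000895). Fcer1g was lower in other Cd8 cells of the Runx1::Runx1t1 pools too, and an interaction test put its group difference in the gate 0.89 ± 0.13 above that outside it (adjusted p = 0.00633), so the fall in the gate was the smaller one. That call was lost without called doublets (0.62, adjusted p = 0.0575), without cells that held NK, gamma-delta or B cell UMIs (0.33, adjusted p = 0.848) and on thinned cells (1.19, adjusted p = 1.0). Myeloid genes moved with Fcer1g: 3 of 5 tested were lower in the Runx1::Runx1t1 gate, and Lyz2 was at 112 and 141 CPM in control gate cells with Fcer1g UMIs but at 0 CPM in such cells of both Runx1::Runx1t1 pools. The part of myeloid RNA in the result was not tested. The control pools are those with more called doublets in the gate. Without the called doublets the log2 fold changes of Fcer1g and Tyrobp were -1.38 and -1.14, and without cells that held NK, gamma-delta or B cell UMIs -2.08 and -1.75, all called. Ikzf2 fell by 0.69 ± 0.11 (adjusted p = 0.00489), and Id3, a factor of less differentiated cells, by 0.95 ± 0.15.

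Eomes, at 166 and 159 CPM against 79.0 and 71.8 CPM, rose by 1.10 ± 0.11 (adjusted p = 9.92e-05). In other Cd8 cells it was at 102 and 112 against 43.6 and 42.4 CPM. Of 20 transcription factors 2 were higher, Eomes and Nfil3, and 2 lower, Ikzf2 and Id3. Of 12 virtual memory genes 1 was higher and 3 were lower, Eomes being the one that rose. Itga4 was at 77.2 and 53.9 CPM against 144 and 115 CPM (-0.97 ± 0.15). Of 10 naive genes 3 were lower and none higher, among them Igfbp4 (-1.41) and Actn1 (-0.92).

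Gzmm and Gzma, 2 of 13 cytotoxic genes, were higher and the others were not called. Gzmm, a granzyme of innate-like lymphocytes, was at 114 and 131 CPM in the Runx1::Runx1t1 gate and at 33.8 and 41.8 CPM in the control gate (log2 1.68 ± 0.12, adjusted p = 4.94e-06). Gzma was at 137 and 66.5 against 15.2 and 18.6 CPM (2.61 ± 0.27). Of 16 genes of chemokines and homing 2 were higher, Ccl4 (0.47) and Ccr2, and 3 lower, Ccr9 (-2.93), Itga1 (-1.43) and Itga4. Without control replicate 1 Ccl4, Ccr9 and Itga1 lost their calls, at 0.41, -2.41 and -1.50, and without control replicate 2 Ccl4 and Itga1 did, at 0.52 and -1.35. Ccr2, a receptor for monocyte-attracting chemokines, was at 63.8 and 60.8 against 20.2 and 20.8 CPM (1.60 ± 0.13, adjusted p = 1.58e-05). Tigit, an inhibitory receptor, was at 60.8 and 58.5 against 30.7 and 33.6 CPM (0.88 ± 0.12), and none of 9 interferon response genes was called.

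Of 7 proliferation genes 5 were higher and none lower (median 1.97). Mki67 was at 33.6 and 73.6 CPM in the Runx1::Runx1t1 gate and at 4.82 and 11.6 CPM in the control gate (log2 2.65 ± 0.35, adjusted p = 0.00125). The groups did not overlap, although the Runx1::Runx1t1 pools differed from each other. DESeq2 did not call it (adjusted p = 0.0559). The mitotic genes Kif15 (3.79), Ube2c (3.05), Bub1b (2.96), Kif11 (2.88) and Cenpf (2.73) were among the 10 largest rises, with Tspan9 (3.95), which lost its call without Runx1::Runx1t1 replicate 1, at 3.06.

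Of 5 tested genes of the myeloid list 3 were lower and none higher. Lyz2, the lysozyme gene, was at 0.839 and 0.856 CPM in the Runx1::Runx1t1 gate and at 78.1 and 76.0 CPM in the control gate (log2 -6.47 ± 0.23, adjusted p = 1.14e-09). Chil3 and Prtn3 had 0 UMIs in the Runx1::Runx1t1 gate and were at least 47.1-fold and 17.1-fold lower there, against a floor of 3 UMIs over the group. F13a1 (-5.33), Fn1 (-5.26) and Ifitm3 (-5.12) followed. S100a8 (-4.16) and S100a9 (-3.52), of neutrophils and monocytes, lost their calls without control replicate 1, at -3.19 and -2.17. In other Cd8 cells Lyz2 was at 16.5 and 1.84 CPM against 189 and 58.7 CPM, and within the control gate at 112 and 141 CPM in cells with Fcer1g UMIs but 13.6 and 7.04 CPM in those without. Leaving out called doublets brought its log2 fold change from -6.47 to -3.68. Cpa3, a mast cell and progenitor protease, went the other way, at 15.1 and 5.99 CPM against 0 and 1.87 CPM, and at 66.1 and 68.0 against 0 and 0.271 CPM in other Cd8 cells. It lost its call in the gate without called doublets, at 2.56.

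**Figure D3:**
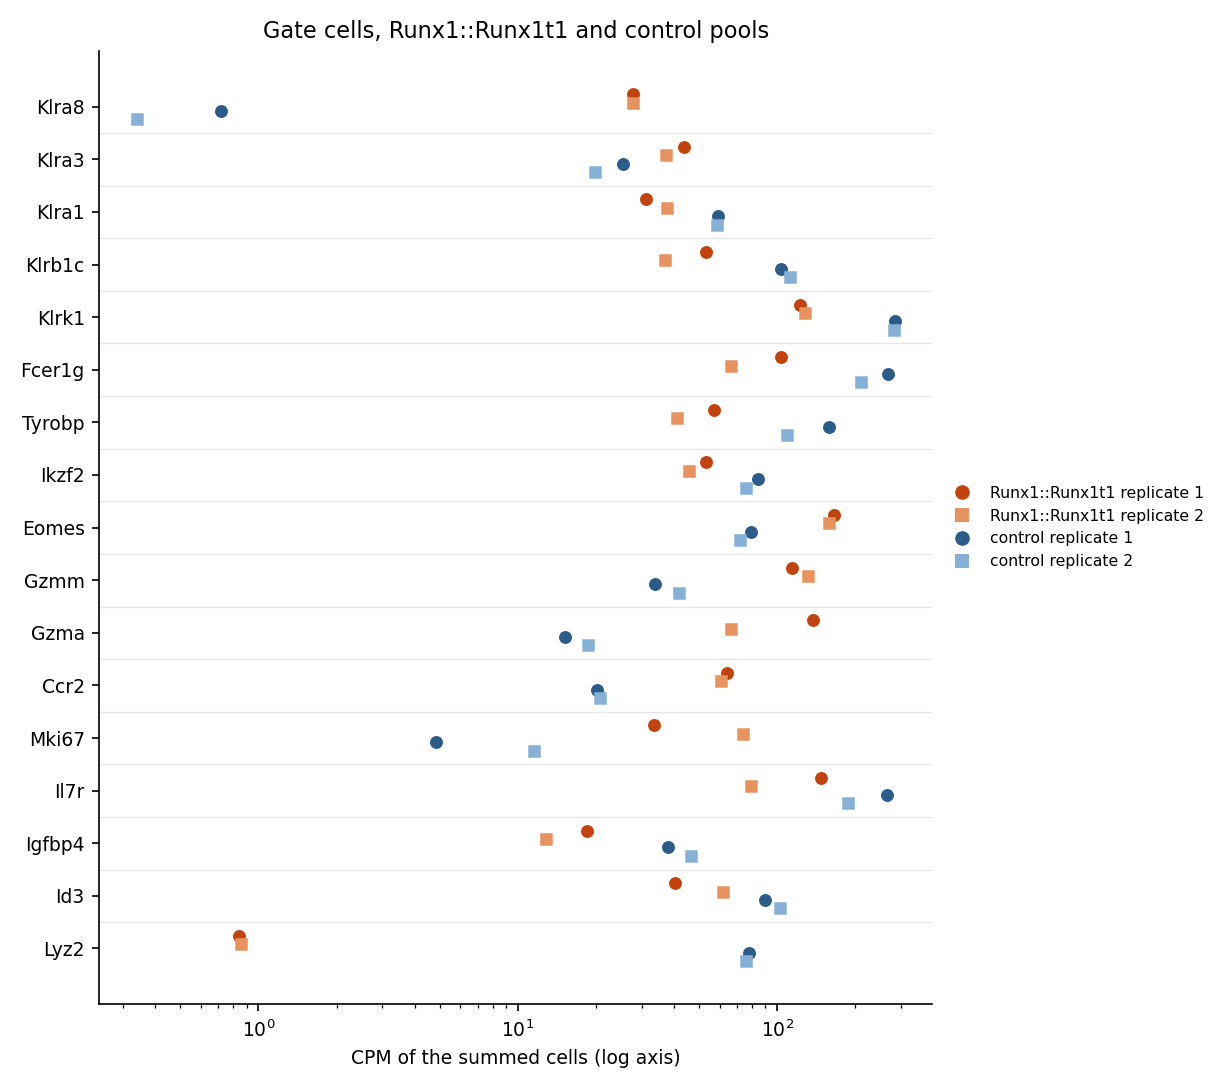
Level of named genes in the Ly49 gate (x axis, CPM of the summed cells, log axis) in the 2 Runx1::Runx1t1 pools and the 2 control pools. Klra8, Gzmm, Gzma, Ccr2, Eomes and Mki67 lie higher in both Runx1::Runx1t1 pools, and Fcer1g, Tyrobp, Ikzf2, Klrk1 and Lyz2 lie lower.

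Whether the groups differed in the gate as they did in other Cd8 cells was tested by an interaction on 12002 genes, in which the same pools give both sides. The difference was larger in the gate for 0.167% of genes and smaller, or more negative, for 0.358% (20 and 43 genes). Gzmm was called on the higher side by 0.91 on the log2 scale, a value that turned sign on thinned cells. It was at 63.4 and 63.5 CPM in other Cd8 cells of the Runx1::Runx1t1 pools and at 27.9 and 45.7 CPM in those of the controls. Adgrg1, an adhesion receptor that the study followed, was called on the lower side (-1.72), with the levels given above: it was not higher in the Runx1::Runx1t1 gate. The gate leaves out cells with Pdcd1 UMIs, so this is not the study's comparison of tumor-reactive with bystander cells. Without Runx1::Runx1t1 replicate 2 Adgrg1 lost that call, at -1.64. Gzmb (-1.34) was called on the lower side too, at 38.2 and 42.5 against 19.5 and 32.9 CPM in the gate and at 70.2 and 101 against 13.3 and 30.1 CPM outside it. Of the 20 genes named by rank in this test none kept its call under every alternative.

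The TCR libraries asked whether gate cells were clonally expanded. A paired TCR, with 1 or more productive TRA and TRB contigs, was found in 329 and 195 gate cells of the Runx1::Runx1t1 pools and in 391 and 457 of the control pools. These 1372 cells held 1369 clonotypes, defined by the same CDR3 nucleotides, and just 3 clonotypes had 2 gate cells and none had 3. Clonotypes of 2 or more cells of the same class took up 1.22% and 0% of gate cells in the Runx1::Runx1t1 pools and 0% and 0.438% in the controls. The same share was 14.2%, 19.4%, 5.16% and 13.5% of other Cd8 cells, 60.5%, 44.2%, 40.2% and 23.2% of Klrg1 cells and 72.4%, 91.7%, 22.8% and 28.2% of Pdcd1 cells. The groups overlapped in the gate (exact permutation p = 1.0). The rule leaves out cells with Klrg1 or Pdcd1 UMIs, the classes with the largest shares in every pool. Without those conditions the share in the gate was 1.45% and 4.76% in the Runx1::Runx1t1 pools and 0.499% and 0.426% in the controls, and the groups did not overlap (exact permutation p = 0.333, the smallest this test can give).

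**Figure D4:**
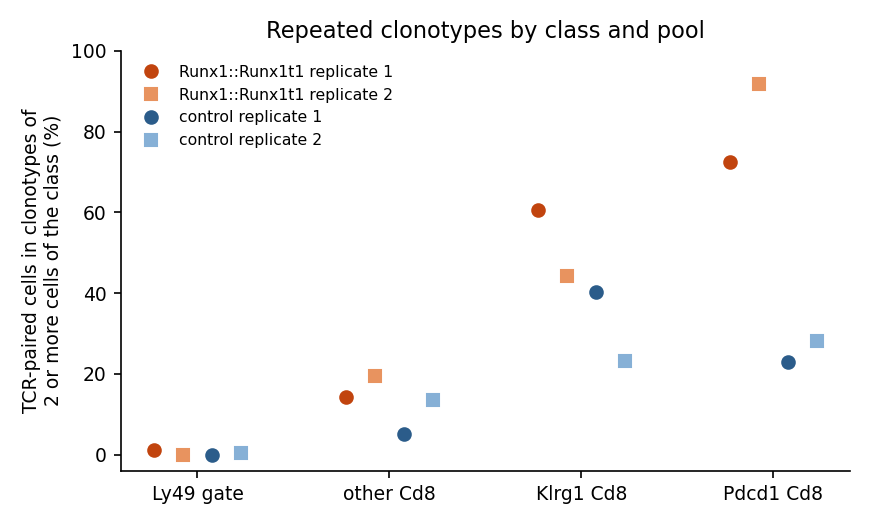
Share of TCR-paired cells in clonotypes of 2 or more cells of the same class (y axis, percent) for each class and pool. The gate lies between 0% and 1.22%, below every other class in every pool.

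Larger classes find more repeats, so the share of cell pairs with the same clonotype, which does not grow with class size, was compared as well. It was 0.00371%, 0%, 0% and 0.00096% of pairs in the gate against 0.0446%, 0.613%, 0.0041% and 0.0195% in other Cd8 cells. It was lower in the gate in 4 of 4 pools, and the exact sign-flip permutation test gave p = 0.125, the smallest that 4 pools allow. Of the gate clonotypes 11, 5, 15 and 16 also had cells that were not gate cells, here of any class. These cells numbered 183 and 1164 in the Runx1::Runx1t1 pools and 56 and 63 in the controls, of which 104, 194, 24 and 31 were other Cd8 cells. Pdcd1 cells made up 9, 893, 3 and 2 of them, and Klrg1 cells 43, 1, 11 and 6. Only in Runx1::Runx1t1 replicate 2 were most of them Pdcd1 cells. No gate clonotype occurred in 2 pools.

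The 3 clonotypes with 2 gate cells are shown by their CDR3 nucleotides, with the first and last codon in capitals. In control replicate 2 both cells of the clonotype lay in the gate. It joined TRAV5-4 to TRAJ38 and a TRBV12-2+TRBV13-2 segment to TRBJ1-6.
Control replicate 2 TRA: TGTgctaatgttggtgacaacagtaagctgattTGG
Control replicate 2 TRB: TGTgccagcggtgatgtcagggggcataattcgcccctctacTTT
In Runx1::Runx1t1 replicate 1, a clonotype with TRAV14-1 and TRAJ49 had 2 of its 66 cells in the gate, 31 among other Cd8 cells and 26 among Klrg1 cells.
Runx1::Runx1t1 replicate 1 TRA, TRAV14-1: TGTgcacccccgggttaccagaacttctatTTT
Runx1::Runx1t1 replicate 1 TRB, TRBJ2-1: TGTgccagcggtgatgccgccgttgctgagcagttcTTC
Another of the same pool with TRAV7-6 and TRAJ49 had 2 of 65 cells in the gate, 38 among other Cd8 cells and 11 among Klrg1 cells.
Runx1::Runx1t1 replicate 1 TRA, TRAV7-6: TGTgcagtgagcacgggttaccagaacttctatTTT
Runx1::Runx1t1 replicate 1 TRB, TRBV30: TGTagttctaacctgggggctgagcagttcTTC
The Runx1::Runx1t1 pairs thus belonged to clonotypes whose cells were mostly not gate cells, whereas the control clonotype lay wholly inside the gate.

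Gate cells differed from other Cd8 cells in other features of the receptor. Cells with 2 TRA contigs made up 17.9%, 23.6%, 30.9% and 28.9% of paired gate cells and 15%, 13.2%, 13.7% and 15.5% of other paired Cd8 cells. The share was higher in 4 of 4 pools (exact sign-flip p = 0.125), with the highest values in the control pools, where more gate cells were called doublets. The part of doublets in it was not tested. Cells with no TCR contig made up 13%, 21.3%, 19.2% and 11.7% of the gate against 8.21%, 14.5%, 6.14% and 5.59%, also higher in 4 of 4 pools. Rearrangements of invariant NKT cells were seen in 1, 0, 3 and 0 gate cells and those of MAIT cells in none. Of 76 V segments TRBV12-2 was used by 8.51%, 13.3%, 12.3% and 12.3% of gate cells and 5.98%, 6.78%, 5.97% and 6.86% of other cells, and TRAV12-3 by 4.56%, 5.64%, 4.09% and 3.72% against 8.03%, 8.50%, 7.19% and 6.94%. These segments were picked after their values were seen and were not tested, and of the 76, counted with duplicated TRAV copies merged, 9 were higher and 6 lower in the gate in all 4 pools.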

How the data were processed

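The authors processed the reads with Cell Ranger 6.1.2 against GRCm38 and deposited 1 count matrix of UMIs per gene and barcode, and 1 table of assembled TCR contigs, for each pool. The deposited counts are whole numbers and were not normalized. No deposited cell type annotation was used. Barcodes with under 200 genes or over 15% mitochondrial UMIs were dropped, and the classes were cut by the UMI conditions given above. The members, gene lists and tests were chosen with earlier results of these data known.

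UMIs were summed per pool and class (at least 20 cells) and tested with edgeR 4.0.16 (TMM, low-count filter, quasi-likelihood F test, Benjamini-Hochberg adjustment over all genes) in R 4.3.3. Gate and comparison cells of the same pool were blocked by pool, and the groups in the gate were compared without a block. The genes that the rule read were left out of the results. DESeq2 1.42.0 was an alternative, and adjusted p-values that DESeq2 gave as NA stayed NA. On simulated counts the steps recovered 187 of 200 changed genes for the gate against other Cd8 cells (11330 genes run), with 10 false calls. For the groups in the gate they recovered 177 of 200 (9978 genes run), with 9 false calls. For the interaction they recovered 151 of 200 (11749 genes run), with 4 false calls. The changed genes had at least 20 expected UMIs in a sum and were moved 2-fold or 4-fold. Otherwise each simulated gene had the same mean share in every sum. Of 100 genes moved 2-fold, 88, 79 and 58 were recovered in these comparisons in turn. Smaller changes were not simulated, so recovery of them is not known. Doublets were called with Scrublet in scanpy 1.11.5 and kept in the main values.

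Genes named were any tested gene of the lists and the 10 largest rises and falls with an adjusted p under 0.05, at least 50 UMIs and pools that moved the same way or did not overlap, and not all of them are printed. V segments were named after their values were seen. Shares were compared by exact permutation tests over pools. Coordinates are those of GRCm38. 1 gene named by this rule is not reported here.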

Additional observations from a re-analysis of the deposited data

Results flagged for a closer look

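For 63 genes the difference between Runx1::Runx1t1 and control pools was not the same in the Ly49 gate as in other Cd8 cells, by the interaction term of edgeR's quasi-likelihood test at an adjusted p under 0.05. On the log2 scale the difference was higher in the gate for H2-Aa (4.03), Bub1b (2.33), Cd74 (1.90), Kcnc1 (1.59), Ube2c (1.54), Cdc20 (1.39), Mki67 (1.37), Gpsm2 (1.19), Bbs9 (0.94) and Gzmm (0.91). H2-Aa and Cd74 belong to MHC class II presentation, and Bub1b, Ube2c, Cdc20 and Mki67 to mitosis and cycling. It was lower in the gate for Cpa3 (-5.33), Cd244a (-2.75), 2900026A02Rik (-2.59), Adgrg1 (-1.72), Ccl3 (-1.62), Rgs16 (-1.59), Igfbp4 (-1.54), Tnfrsf9 (-1.45), Chn2 (-1.44) and Gzmb (-1.34). On thinned cells the value turned sign for H2-Aa, Cd74, Kcnc1, Gpsm2, Bbs9, Gzmm and Igfbp4. Ccl3 was at 57.1 and 66.8 CPM in the gate of the Runx1::Runx1t1 pools and at 73.1 and 65.3 CPM in that of the controls, while in other Cd8 cells it was at 47.7 and 114 CPM against 22.2 and 31.9 CPM. Chn2 was at 9.65 and 15.1 against 15.7 and 13.8 CPM in the gate and at 5.48 and 17.0 against 4.23 and 4.82 CPM outside it.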

How the results depend on the processing

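The direction of the gate share, lower in Runx1::Runx1t1, held under every alternative run, and its difference of -5.48 percentage points shrank to -2.36 without cells with Ncr1, Klrb1c, Trdc or Cd79a. On thinned cells both groups' means fell, to 1.15% and 2.29% from 5.51% and 11.0%. The exact two-sided p was never below 0.333. The difference in repeated gate clonotypes, 0.389 percentage points, rose to 2.64 without the Klrg1 and Pdcd1 conditions, turned to -0.341 with 2 UMIs of Klra6 or Klra7 and, without Runx1::Runx1t1 replicate 1, to -0.219, the leave-one-out values running from -0.219 to 0.997. The 2054 genes called between the gate and other Cd8 cells became 1272 with DESeq2, 377 without the pool block, 1190 without the Klrg1 and Pdcd1 conditions, 61 on thinned cells (25 higher, 36 lower) and 1278 to 1850 with 1 pool left out (without control replicate 2, 1278). Without the low-count filter 1159 of 2452 calls were higher. For Il2rb-positive cells 1337 became 692, 188, 598, 23 and 791 to 1218. For Klrg1 cells 2379 became 1263 with DESeq2, 270 on thinned cells, 1369 with each clonotype once and 1532 to 2107 with 1 pool left out. For the groups in the gate 349 became 124 with DESeq2, 212 without called doublets, 206 with 2 UMIs, 92 without cells with Ncr1, Klrb1c, Trdc or Cd79a, and 126 (without control replicate 1) to 758 (without Runx1::Runx1t1 replicate 1) with 1 pool left out. On thinned cells edgeR called 0 of 1196 genes, with 98 at an unadjusted p under 0.05, where the gate held 41, 26, 50 and 47 cells. For the interaction 63 became 240 without the low-count filter, 18 with DESeq2, 201 without the Klrg1 and Pdcd1 conditions, 6 on thinned cells, 34 without cells with the 4 markers and 86 to 336 with 1 pool left out. Thinning turned its log2 value for Bbs9 (-0.75), Cd74 (-1.05), Gpsm2 (-8.10), Gzmm (-0.23), H2-Aa (-0.62), Igfbp4 (0.46) and Kcnc1 (-6.39). The cause of these moves was not tested.

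The labels give the groups the same replicate numbers. With the replicate block 1369 genes were called between the groups in the gate in place of 349. The deviations of the replicate 1 pools correlated at 0.289, or 0.180 without sex genes, over genes that are not independent, and the labels do not say that a number marks a litter. All 349 genes were among the 1369.

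Of the named genes, 24 of 26 against Klrg1 cells, 25 of 54 against other Cd8 cells, 5 of 13 among Il2rb-positive cells and 17 of 54 between groups kept their call under every alternative that tested them. No named gene of these 4 comparisons changed sign except Mki67 against other Cd8 cells, at -0.586 on thinned cells. The 2 pools per group and the 393, 258, 511 and 540 gate cells limit the precision. For the groups in the gate, edgeR p-values measure the spread between pools of a group. In the fits blocked by pool they measure how evenly the difference between gate and comparison cells recurred within pools.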
